A study of Mus musculus with 27 samples.

Results

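Ndufa4l2 and Cox4i2 were examined in the mouse retina beside Ndufa4 and Cox4i1, the genes whose protein each can stand in for. These 4 genes, of 40129 in the table, were listed by name, and they were chosen because Ndufa4l2 was higher, more evenly than any other gene, in retinas with oxygen-induced retinopathy (OIR). The OIR and nOIR levels that follow are therefore what selected the genes, and they are given as a description with no test. Whole retinas of wild-type C57BL/6 mice (C57BL/6J in the study's methods) were sequenced, 1 library per mouse, made from 1 retina or from both retinas pooled. OIR pups breathed 75% oxygen from day 7 to day 12 and then room air until sampling at day 14 (OIR p14, n = 6) or day 17 (OIR p17, n = 8). Control pups stayed in room air throughout and were sampled at the same ages (nOIR p14, n = 6, and nOIR p17, n = 6). The groups shared strain, genotype and tissue, and several mice of a group were littermates, although which ones was not known here. In OIR the young vessels of the central retina are lost in oxygen, the tissue becomes hypoxic in room air, and new vessels then grow into the vitreous.

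Complex IV, or cytochrome c oxidase, is the last complex of the mitochondrial respiratory chain and passes electrons to oxygen. COX4 is a subunit of this complex that exists in a common form, encoded by Cox4i1, and a second form, encoded by Cox4i2, which is known from lung, from oxygen-sensing cells and from the mural cells of vessels. NDUFA4 was first assigned to complex I and is now counted as a complex IV subunit, and NDUFA4L2 is its close relative. Ndufa4l2 is a well-known target of HIF-1, the transcription factor that is stabilized when oxygen is low, and its product lowers respiratory activity in hypoxic cells.

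The isoforms of each pair are separate genes on different chromosomes. In the Gencode M21 annotation of GRCm38, Ndufa4l2 lies on the plus strand at chr10:127514967-127517154 and Ndufa4 on the minus strand at chr6:11900292-11907497. Cox4i2 lies on the plus strand at chr2:152754173-152765037, and Cox4i1 on the plus strand at chr8:120668222-120674207. The coding sequences of Ndufa4l2 (264 bases) and Ndufa4 (249 bases) were identical at 71.9% of 242 aligned bases, and their longest shared stretch was 28 bases. Since reads of the pair must be told apart by sequence, both coding sequences are printed whole, 5′ to 3′ from start to stop codon, with this stretch in capitals.
Ndufa4l2: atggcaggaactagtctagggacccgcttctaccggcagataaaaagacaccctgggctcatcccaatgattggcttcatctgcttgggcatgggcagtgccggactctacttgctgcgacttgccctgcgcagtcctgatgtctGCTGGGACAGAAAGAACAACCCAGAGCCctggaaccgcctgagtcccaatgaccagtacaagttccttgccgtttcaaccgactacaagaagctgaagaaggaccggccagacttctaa
Ndufa4: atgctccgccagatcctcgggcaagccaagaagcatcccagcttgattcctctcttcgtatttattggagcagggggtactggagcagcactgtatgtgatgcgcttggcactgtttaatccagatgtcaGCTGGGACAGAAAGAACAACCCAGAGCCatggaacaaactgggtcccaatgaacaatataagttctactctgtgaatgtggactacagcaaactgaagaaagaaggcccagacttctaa

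Cox4i2 (519 coding bases) and Cox4i1 (510 coding bases) were identical at 70.8% of 489 aligned bases, and their longest shared stretch was 14 bases. The windows below hold that stretch in capitals, and run from base 244 to 393 of the Cox4i2 coding sequence and from base 235 to 384 of the Cox4i1 coding sequence.
Cox4i2: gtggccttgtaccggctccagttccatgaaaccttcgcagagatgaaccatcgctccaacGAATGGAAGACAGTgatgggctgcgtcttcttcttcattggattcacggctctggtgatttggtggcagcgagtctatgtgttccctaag
Cox4i1: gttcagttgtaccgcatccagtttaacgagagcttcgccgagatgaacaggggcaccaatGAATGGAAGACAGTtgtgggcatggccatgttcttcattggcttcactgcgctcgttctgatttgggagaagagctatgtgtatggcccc
No run of 50 bases in the Ndufa4l2, Ndufa4 or Cox4i2 transcript was found in a transcript of another gene. In Cox4i1, 14.7% of such runs lay in Emc8, a gene of the opposite strand whose exons overlap 154 of the 765 bases of the Cox4i1 transcript. Ndufa4l2 overlaps the opposite-strand gene Shmt2 by 32 of 934 bases. Shmt2, which encodes a mitochondrial serine enzyme, was higher in OIR mice by 0.35 at p14 and by 0.54 at p17 on the log2 scale, a far smaller difference than that of Ndufa4l2. The library kit does not mark strand.

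The table holds normalized reads, which are read counts divided by a size factor for each mouse, and whole reads could be recovered from 100% of the values. The depth behind each mouse was 17029536 to 33593428 such reads. The p-values below take mice as independent. Rod genes marked the tissue as retina, since the summed reads of Gnat1, Pde6b, Sag, Nrl and Cnga1 were at least 531820 in every mouse. Lens genes varied widely, with Cryaa between 0 and 12404 normalized reads over the mice used.

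In control retinas Ndufa4l2 was a minor transcript. Its lowest, median and highest values were 156, 199 and 221 normalized reads in nOIR p14 mice, and 101, 115 and 157 in nOIR p17 mice. In OIR mice these values were 1686, 2335 and 3001 at p14, and 2123, 3265 and 4726 at p17. Every OIR mouse lay above every nOIR mouse of either age, by a wide gap. As group means, Ndufa4l2 had 193.9 ± 23.1 (SD, n = 6) normalized reads in nOIR and 2264 ± 494 (SD, n = 6) in OIR mice at p14, and 121.5 ± 21.7 (SD, n = 6) in nOIR and 3484 ± 994 (SD, n = 8) in OIR mice at p17. On the log2 scale after adding 1 read, the difference was 3.52 (SE 0.17) at p14 and 4.79 (SE 0.16) at p17, which equals an 11.5-fold and a 27.8-fold higher level. All OIR mice lay above all nOIR mice in 1.91% of the 27137 genes tested at p14 and in 3.9% at p17, but Ndufa4l2 was selected on this pattern, so nothing follows from its place among them.

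**Figure D1:**
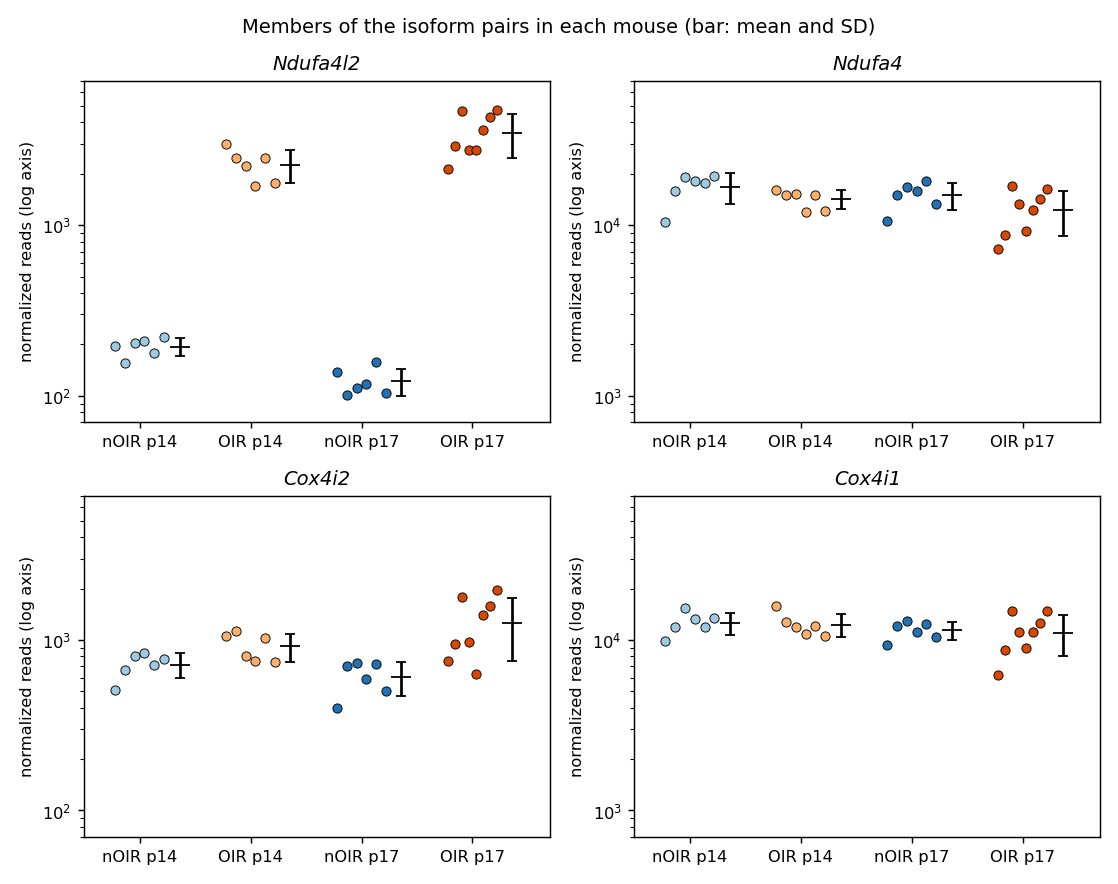
Normalized reads of the 4 genes in each mouse (vertical log axis, spanning the same number of decades in each panel), with the mean and SD of each group beside the points. Ndufa4l2 splits into a low nOIR band (101 to 221) and a high OIR band (1686 to 4726), Cox4i2 is shifted less, and Ndufa4 and Cox4i1 stay high in every group.

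Cox4i2 differed less, and its groups were not separated at both ages. Its lowest, median and highest values were 511, 739 and 836 normalized reads in nOIR p14 mice and 738, 916 and 1131 in OIR p14 mice. At p14 the ranges overlapped, and 3 of 6 OIR mice lay above every control. At p17 the values were 399, 645 and 730 in nOIR mice and 631, 1189 and 1972 in OIR mice. Here 7 of 8 OIR mice lay above every control, and the remaining mouse, S5, lay within the control range. The log2 difference was 0.35 (SE 0.22) at p14 and 0.97 (SE 0.21) at p17, and with single mice left out it ran from 0.26 to 0.41 at p14.

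The partner genes were abundant in every group. Ndufa4 had 10378, 17814 and 19471 normalized reads (lowest, median, highest) in nOIR p14 mice, and its range was 11999 to 16162 in OIR p14 mice. At p17 it ranged from 10619 to 18238 in nOIR mice and from 7213 to 16977 in OIR mice. The ranges overlapped at both ages, although 3 of 8 OIR p17 mice lay below every control. The log2 difference was -0.21 (SE 0.18) at p14 and -0.33 (SE 0.17) at p17.

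Cox4i1 ranged from 9804 to 15298 normalized reads in nOIR p14 mice and from 10475 to 15725 in OIR p14 mice. At p17 it ranged from 9357 to 12865 in nOIR mice and from 6239 to 14712 in OIR mice, so that some OIR mice lay above and others below all controls. Its log2 difference was -0.04 (SE 0.15) at p14 and -0.09 (SE 0.14) at p17. The sign of the p14 difference was not fixed, since it was 0.01 when each mouse was scaled to the same total and 0.01 after quantile normalization. After quantile normalization, the p17 difference of Cox4i1 was 0.0013.

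Levels of isoforms can be compared once reads are divided by transcript length. Per kilobase, Ndufa4l2 had a level of 207.6 ± 24.7 and Ndufa4 a level of 27430 ± 5536 normalized reads in nOIR p14 mice (SD, n = 6 each). In OIR p17 mice the same levels per kilobase were 3731 ± 1064 and 20130 ± 5888 (SD, n = 8). Ndufa4l2 thus stayed below Ndufa4 in every group, and its share of the pair per kilobase was 0.782% in nOIR p14, 9.31% in OIR p14, 0.543% in nOIR p17 and 15.8% in OIR p17. Cox4i2 took a larger share of its pair in controls than Ndufa4l2 did, with 5.59% in nOIR p14 and 5.22% in nOIR p17. In OIR mice the share of Cox4i2 per kilobase was 7.23% at p14 and 10.4% at p17. The order of both shares was therefore turned between the pairs in OIR mice, where Ndufa4l2 had the larger share at both ages.

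The ratio of reads of both isoforms in the same library does not depend on the size factor of that library. Ndufa4l2 reads per 100 Ndufa4 reads were 1.21 ± 0.34 in nOIR p14, 15.7 ± 1.71 in OIR p14, 0.836 ± 0.238 in nOIR p17 (SD, n = 6 each) and 28.7 ± 3.53 in OIR p17 (SD, n = 8). The corresponding lowest and highest ratios were 14.1 and 18.6 in OIR p14 and 20.8 and 33.1 in OIR p17, against at most 1.88 in any control. Groups of different treatment were fully separated, and the OIR groups were also separated from each other.

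For Cox4i2 the reads per 100 Cox4i1 reads were 5.67 ± 0.42 in nOIR p14, 7.47 ± 0.98 in OIR p14, 5.28 ± 0.63 in nOIR p17 (SD, n = 6 each) and 11.2 ± 2.22 in OIR p17 (SD, n = 8). The ratio ranged from 5.22 to 6.29 in nOIR p14 mice and from 6.66 to 8.93 in OIR p14 mice, which did not overlap although the Cox4i2 levels themselves did. At p17 it ranged from 4.27 to 5.86 in nOIR and from 7.03 to 13.4 in OIR mice, again without overlap. On the log2 scale, the OIR minus nOIR difference of the ratio was 3.73 (SE 0.15) at p14 and 5.12 (SE 0.16) at p17 for Ndufa4l2 to Ndufa4, and 0.39 (SE 0.09) and 1.06 (SE 0.14) for Cox4i2 to Cox4i1. Like the levels, these differences rest on the contrast that selected the genes.

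**Figure D2:**
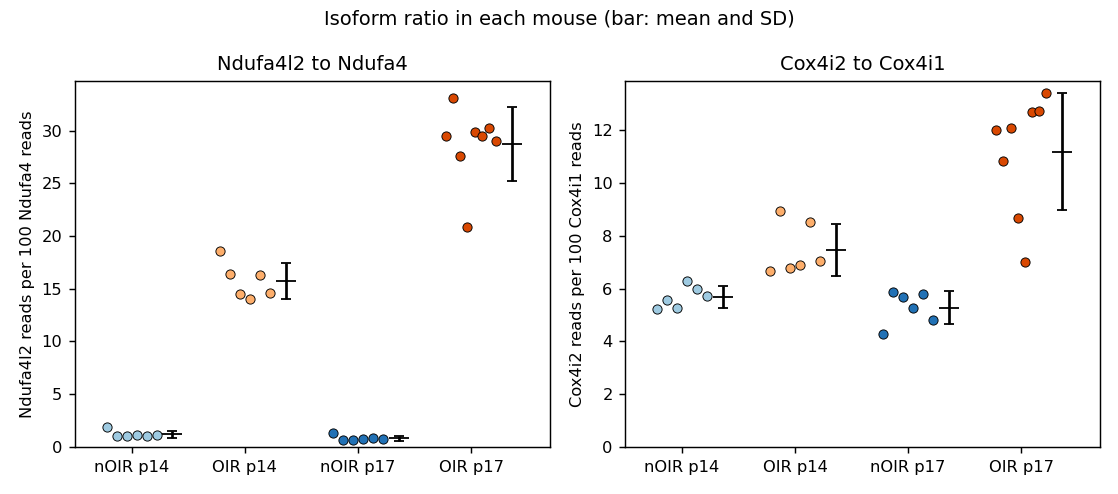
Reads of Ndufa4l2 per 100 reads of Ndufa4 (left) and of Cox4i2 per 100 reads of Cox4i1 (right) in each mouse, on linear axes from 0, with the mean and SD of each group. Both ratios are highest in OIR p17 mice, and the lowest OIR p17 value on the left, 20.8, stands below the other mice of its group.

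The difference between the OIR effect at p17 and that at p14 was 1.28 on the log2 scale for Ndufa4l2 (SE 0.24). It is built from the OIR and nOIR levels that chose the gene and is given with no test. Age within 1 treatment was not the contrast of the choice and was tested, although the same mice and values entered both. The difference above is the change with age in OIR mice less that in nOIR mice. The p-values of age for Ndufa4l2 are therefore not independent of its choice. From p14 to p17, Ndufa4l2 rose by 0.60 in OIR mice (SE 0.16, Benjamini-Hochberg adjusted p = 0.0218, limma), where 4.11% of genes were called higher and 1.81% lower. The OIR p14 and p17 ranges overlapped, and the adjusted p was between 0.00400 and 0.102 over the alternatives. It was above 0.05 with the compared groups only, with a replicate block and with log2 Cryaa as a covariate, where the change was 0.60, 0.47 and 0.54. It was also above 0.05 without OIR p14 mouse S4 or S6 or OIR p17 mouse S3 or S8, where the change was 0.52 to 0.53. In nOIR mice the change was -0.68 (SE 0.17, adjusted p = 0.0932, limma), which did not pass the threshold of 0.05, in a contrast with 0.158% of genes called higher and 0.158% called lower. Over the alternatives the latter adjusted p ran from 0.0379 to 0.214. Marker genes of vessels and blood moved with the rise in OIR mice, since from OIR p14 to OIR p17 limma called 9 of 10 pericyte, 8 of 9 endothelial, 2 of 5 smooth muscle and 3 of 3 red cell genes higher, and their part in the rise was not tested.

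No other member passed the threshold from p14 to p17 within a treatment. For Cox4i2, the difference between the OIR effects was 0.62 (SE 0.30), a description as for Ndufa4l2. Its change from p14 to p17 was 0.37 in OIR mice (SE 0.21, limma adjusted p = 0.359) and -0.25 in nOIR mice (SE 0.22, adjusted p = 0.908). For Ndufa4 the difference between the OIR effects was -0.12. Its change from p14 to p17 was -0.27 in OIR mice (SE 0.17) and -0.15 in nOIR mice (SE 0.18). For Cox4i1 the difference between the OIR effects was -0.05. Its change from p14 to p17 was -0.19 in OIR mice (SE 0.14) and -0.14 in nOIR mice (SE 0.15).

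Because a ratio does not depend on the size factor, age was also tested on the ratios, with 4 two-sided exact permutation tests and Benjamini-Hochberg adjustment over them. Like the age tests above, they use the values of the choice. In OIR mice the log2 SD of the Ndufa4l2 to Ndufa4 ratio was below that of Ndufa4l2 (0.153 against 0.318 at p14, 0.196 against 0.424 at p17). In nOIR mice it was above (0.343 against 0.178 at p14, 0.359 against 0.245 at p17). The log2 ratio of Ndufa4l2 to Ndufa4 rose by 0.86 from OIR p14 to OIR p17 (exact p = 0.000666, the smallest that 6 against 8 mice allow, adjusted p = 0.00266), and all OIR p17 mice lay above all OIR p14 mice. In nOIR mice the same ratio fell by 0.53 (exact p = 0.0216, adjusted p = 0.0289) with overlapping ranges. Without nOIR p14 mouse S1, S5 or S7, or without nOIR p17 mouse S2, S3, S4 or S6, the adjusted p of this fall was between 0.052 and 0.058. The log2 ratio of Cox4i2 to Cox4i1 rose by 0.56 from OIR p14 to OIR p17 (exact p = 0.00533, adjusted p = 0.0107) and its ranges overlapped. In nOIR mice the change of that ratio was -0.11 (exact p = 0.240). A lower partner also raises a ratio. From OIR p14 to OIR p17 the level of Ndufa4 changed by -0.27 and that of Cox4i1 by -0.19, neither called by limma. The rise of the Cox4i2 level was not called either. The ratio rises are therefore not rises of Ndufa4l2 or Cox4i2 alone.

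The mice of a group did not vary independently from gene to gene. In nOIR mice of p14 (n = 6), OIR mice of p14 (n = 6), nOIR mice of p17 (n = 6) and OIR mice of p17 (n = 8), in this order, Ndufa4 and Cox4i1 had Pearson's r of 0.894, 0.825, 0.930 and 0.983 on the log2 scale, and Spearman's coefficients of 0.943, 0.771, 0.886 and 0.976. The exact permutation p-values of r were 0.0139, 0.0306, 0.0167 and 9.92e-05, or 0.0311, 0.0407, 0.0311 and 0.000794 after Benjamini-Hochberg adjustment over the 8 relations computed. For Spearman's coefficient the exact permutation p-values were 0.0167, 0.103, 0.0333 and 0.000397, or 0.0444, 0.137, 0.0533 and 0.00317 after adjustment, so that it passed in nOIR p14 and OIR p17 mice. Leaving out the 2 mice farthest from the median of Ndufa4 gave r of 0.729, 0.944, 0.838 and 0.981. Without single mice the adjusted p of r reached 0.0952 in nOIR p14 (above 0.05 without S1, S2, S5 or S6), 0.244 in OIR p14 (above 0.05 without any mouse) and 0.133 in nOIR p17 (above 0.05 without S1, S5 or S6), and stayed at or under 0.00635 in OIR p17.

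Within the OIR groups, Ndufa4l2 and Cox4i2 were also correlated. In OIR p17 mice r was 0.931 (n = 8, exact permutation p = 0.00283, adjusted p = 0.0113) and Spearman's coefficient was 0.952 (exact permutation p = 0.00114, adjusted p = 0.00456), and r was 0.925 without the 2 mice farthest from the median of Ndufa4l2. In OIR p14 mice r was 0.873 (n = 6, exact permutation p = 0.0194, adjusted p = 0.0311) and Spearman's coefficient was 0.886 (exact permutation p = 0.0333, adjusted p = 0.0533). There r was 0.598 with those 2 mice left out, and leaving out any single OIR p14 mouse raised the adjusted p to between 0.0533 and 0.156. In controls the relation did not pass the test, with r of 0.364 in nOIR p14 (n = 6, exact permutation p = 0.458, Spearman's coefficient 0.657, exact permutation p = 0.175) and -0.12 in nOIR p17 (n = 6, exact permutation p = 0.731, Spearman's coefficient -0.029, exact permutation p = 1). Whether r differed between OIR and nOIR mice was not tested. The relation was not particular to this pair. After subtracting each group's mean on the log2 scale, the deviations of Ndufa4l2 over the 26 mice had r of 0.709 with those of Cox4i2, 0.757 with Cox4i1 and 0.663 with Ndufa4, and those of Cox4i2 had r of 0.869 with Ndufa4 and 0.861 with Cox4i1.

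**Figure D3:**
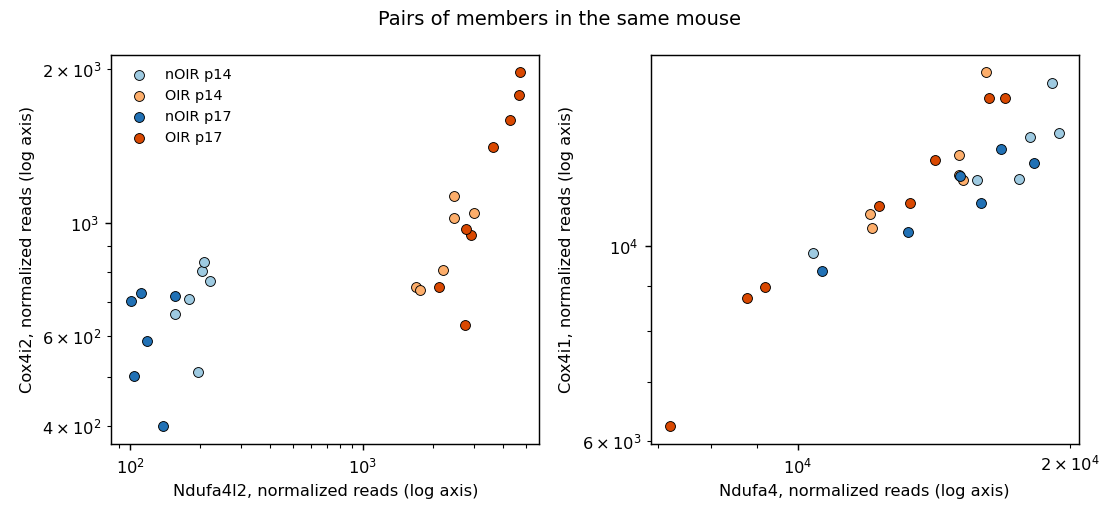
Each point is a mouse, with Cox4i2 against Ndufa4l2 on the left and Cox4i1 against Ndufa4 on the right, in normalized reads on log axes. On the left the OIR mice form their own cluster to the right of 1686 reads and climb together, while on the right all groups lie along a common band.

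A shared ordering of mice was also seen in gene sums of the respiratory chain, and less evenly in those of cell types. The deviations of Ndufa4 from the group means over the 26 mice had r of 0.985 with those of the summed complex I subunits, and Cox4i1 had r of 0.970. For Cox4i2 the value was 0.895, and for Ndufa4l2 it was 0.719. With the summed pericyte markers r was 0.818 for Cox4i2, 0.723 for Cox4i1, 0.691 for Ndufa4 and 0.517 for Ndufa4l2, but Vtn held 61.1 to 90.7% of that sum, and without it r was between -0.15 and -0.01 for the 4 members. Cox4i2 had r of 0.809 with summed Müller glia markers and Cox4i1 had r of 0.748 with summed rod genes, while all 4 members had r between -0.51 and -0.44 with summed endothelial markers. Kdr, which was not called in OIR mice at either age, had group means of 4899 to 7095 normalized reads in this last sum of 8096 to 15277, and without it r was between -0.17 and -0.04. Both omissions were chosen after the values were seen. These correlations are descriptions, since the genes share a library and its size factor. The mouse with the fewest reads, OIR p17 S1 (17029536), had the lowest Ndufa4 and Cox4i1 levels of its group. The mouse with the most, OIR p14 S6 (33593428), had the lowest Cox4i1 level of its own, and nOIR p14 S1 (31201752) and nOIR p17 S1 (30756040) had the lowest levels of both genes in theirs. The part of depth in this ordering was not tested.

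The other subunits of these complexes were read beside the members. Over all genes tested, 3.18% were called higher and 2.91% lower in OIR mice at p14, and 7.39% and 5.12% at p17 (limma, adjusted p under 0.05). Of 37 nuclear complex I subunits, 0 were called higher and 1 lower at p14, namely Ndufb2, an accessory subunit, which fell by 0.48 (SE 0.11, adjusted p = 0.00414). At p17 again 0 were called higher and 1 lower, Ndufs1, a core iron-sulfur subunit, which fell by 0.26 (SE 0.07, adjusted p = 0.0098). The Ndufs1 call was lost under scaling to the same total and under quantile normalization, and the counts at an unadjusted p under 0.05 and by edgeR and DESeq2 were also 0 higher and 1 lower at each age. The median log2 difference of the list was -0.13 at p14 and -0.12 at p17, against 0.02 and -0.02 over all genes. The difference was above 0 in 3 of the 37 genes at p14 and in 1 at p17.

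Of the 15 nuclear complex IV subunits tested beside the members, 0 were called at either age, with median log2 differences of -0.13 and -0.12. At an unadjusted p under 0.05 there were only Cox8b (-1.31) and Cox6b2 (-0.51) at p14 and Cox6a2 (0.95) at p17, edgeR called 0 at either age, and DESeq2 called 1 gene lower at p14 and 1 higher at p17. By limma, Cox8b was called lower at p14 with the compared groups only (-1.31, adjusted p = 0.0332). It was also called with log2 Cryaa as a covariate (-1.565, adjusted p = 0.0267). Mt-Co1, the catalytic subunit encoded in mitochondrial DNA, had a log2 difference of 0.04 (SE 0.15) at p14 and -0.17 (SE 0.14) at p17, and neither passed the test. It was the only 1 of the 3 complex IV genes of mitochondrial DNA that could be tested. Mt-Co3 was at 0 in 24 mice, and mt-Co2 was not found under that symbol. AA467197, the third gene of the Ndufa4 family, was at 0 to 18.6 normalized reads in every mouse and was not called. Ndufa4l2 was thus the member of its family and complex with the largest difference between OIR and nOIR mice at both ages among the subunits tested here, a difference it was chosen for.

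A further list held 9 hypoxia-linked genes, of which 8 encode mitochondrial proteins and Mxi1 encodes a nuclear repressor that antagonizes MYC. Those that rose in OIR mice did so by less than the difference of Ndufa4l2. Since Ndufa4l2 was chosen for that difference, nothing follows from this order. Of the 9 genes, 5 rose and 0 fell at p14, and 5 rose and 0 fell at p17 by limma. At an unadjusted p under 0.05 there was 1 lower gene at each age, edgeR called 0 lower at both ages, and DESeq2 called 1 lower at p17. Bnip3, a mitophagy receptor, rose by 1.06 at p14 (SE 0.15, adjusted p = 2.44e-05, limma) and by 1.12 at p17 (SE 0.14, adjusted p = 7.83e-07). Fam162a, a HIF-1-responsive mitochondrial protein, rose by 0.91 (SE 0.18, adjusted p = 0.00156) and 1.29 (SE 0.17, adjusted p = 1.66e-06). Pdk1, a kinase that inhibits mitochondrial pyruvate dehydrogenase, rose by 0.71 (SE 0.12, adjusted p = 0.000319) and 0.68 (SE 0.12, adjusted p = 7.63e-05).

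Higd1a, which binds complex IV, rose by 0.53 (SE 0.15, adjusted p = 0.0259) and 0.74 (SE 0.14, adjusted p = 0.00021), and Pdk3 rose at p14 by 0.34 (adjusted p = 0.0489). At p17 Pdk3 was called only at the same total per mouse and after quantile normalization. At p14 Pdk3 was not called in 20 of the 38 settings run, with an adjusted p of up to 0.124. These were a filter at above 0, the compared groups only, log2 Cryaa as a covariate, the replicate block and the omission of nOIR p14 S1, S2, S3 or S6, OIR p14 S1, S2, S3 or S5, nOIR p17 S1, S2, S4, S5 or S6, or OIR p17 S2, S4 or S7. Bnip3l passed at p17, with a rise of 0.40 (adjusted p = 0.0081), and was not called with the replicate block (adjusted p = 0.0607). At p14 its difference was 0.36, which was not called here but was in 8 of 38 settings. Lonp1, Mxi1 and Fundc1 did not pass at either age and had log2 differences between -0.37 and 0.25, with Fundc1 below 0 at both ages and Mxi1 below 0 at p17. Fundc1 was called lower at p17 in 10 of 38 settings, namely by DESeq2, with the compared groups only, with a minimum mean of 10, with the replicate block and without nOIR p14 mouse S1, nOIR p17 mouse S1, OIR p14 mouse S1 or S4 or OIR p17 mouse S3 or S8, and at p14 without nOIR p14 mouse S1. Lonp1 was called higher at p17 in 4, namely at the same total per mouse, after quantile normalization and without OIR p14 mouse S1 or nOIR p17 mouse S1. Without OIR p14 mouse S1, S2, S3 or S5, or without nOIR p14 mouse S1 or S2, the p14 count was 3, with Higd1a and Pdk3 no longer called. Between the ages, the OIR effect differed in 0 of the 9 genes by limma, at an unadjusted p under 0.05 as well, and in 0 by edgeR and DESeq2, where 1.43% of all genes were called higher and 0.147% lower by limma.

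The transcripts of factors linked to the members were read next. Of 6 factors, 0 were called at p14 by limma, edgeR or DESeq2, and 1 had an unadjusted p under 0.05. At p17 Hif1a, the oxygen-regulated subunit of HIF-1, fell by 0.30 (SE 0.08, adjusted p = 0.00661, limma), a call that was lost after quantile normalization. Rbpj, a transcription factor that together with CXXC5 and CHCHD2 has been linked to the COX4I2 promoter, rose by 0.36 at p17 (SE 0.11, adjusted p = 0.0231). Its adjusted p was above 0.05, at up to 0.106, in 6 of 38 settings, which were the compared groups only, quantile normalization, the replicate block and the omission of nOIR p17 mouse S4 or OIR p17 mouse S2 or S8. Epas1, Arnt, Cxxc5 and Chchd2 had log2 differences between OIR and nOIR mice of -0.23 to 0.19 and did not pass at either age, except Epas1 at p17 at the same total per mouse (0.26, adjusted p = 0.0469). From OIR p14 to OIR p17, Epas1, which encodes the oxygen-regulated subunit of HIF-2, rose by 0.43 (SE 0.09, limma adjusted p = 0.00138), with all OIR p17 mice above all OIR p14 mice. In this contrast 4.11% of all genes were called higher, and the share of genes with such full separation was not counted.

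Cox4i2 is known from the mural cells of vessels, so marker genes of pericytes were read beside it. In whole tissue, fewer cells of a type and less RNA per cell cannot be told apart. Over all genes, limma called 3.18% higher and 2.91% lower in OIR mice at p14, and 7.39% and 5.12% at p17. Of 10 pericyte markers, 0 were called higher and 6 lower in OIR mice at p14 by limma, edgeR and DESeq2 (0 higher and 7 lower at an unadjusted p under 0.05), with a median log2 difference of -1.15, while 7 were called higher and 1 lower at p17, with a median of 1.34. Rgs5, a regulator of G-protein signalling enriched in pericytes, fell by 1.10 at p14 (SE 0.15, adjusted p = 1.75e-05, limma) and rose by 1.84 at p17 (SE 0.14, adjusted p = 1.04e-10). Kcnj8 and Abcc9, which encode the subunits of a pericyte potassium channel, fell by 1.72 and 1.47 at p14 and rose by 0.99 and 1.36 at p17. Higd1b fell by 1.21 and then rose by 2.27, and the receptor gene Pdgfrb rose by 1.32 at p17 (SE 0.17, adjusted p = 1.02e-06). Atp13a5 was lower at both ages, with log2 differences of -2.88 and -2.72.

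Beside these markers, the log2 difference at p14 was 3.52 for Ndufa4l2 and 0.35 for Cox4i2. At p17 the differences were 4.79 and 0.97. The summed normalized reads of the 10 markers were 21202 to 26997 in nOIR p14, 14180 to 20048 in OIR p14 mice, and at p17 they were 22957 to 33083 in nOIR and 29787 to 42626 in OIR mice. Vtn made up 61.1 to 90.7% of this sum. Without Vtn, a split chosen after the values were seen, the sum was 3648 to 4272 in nOIR p14, 1560 to 3294 in OIR p14, and at p17 3112 to 3813 in nOIR and 9088 to 12890 in OIR mice. Anpep was at 0 in 1 mouse, and no other marker was at 0 in any mouse. The part of pericyte abundance in the Cox4i2 and Ndufa4l2 levels was not tested.

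**Figure D4:**
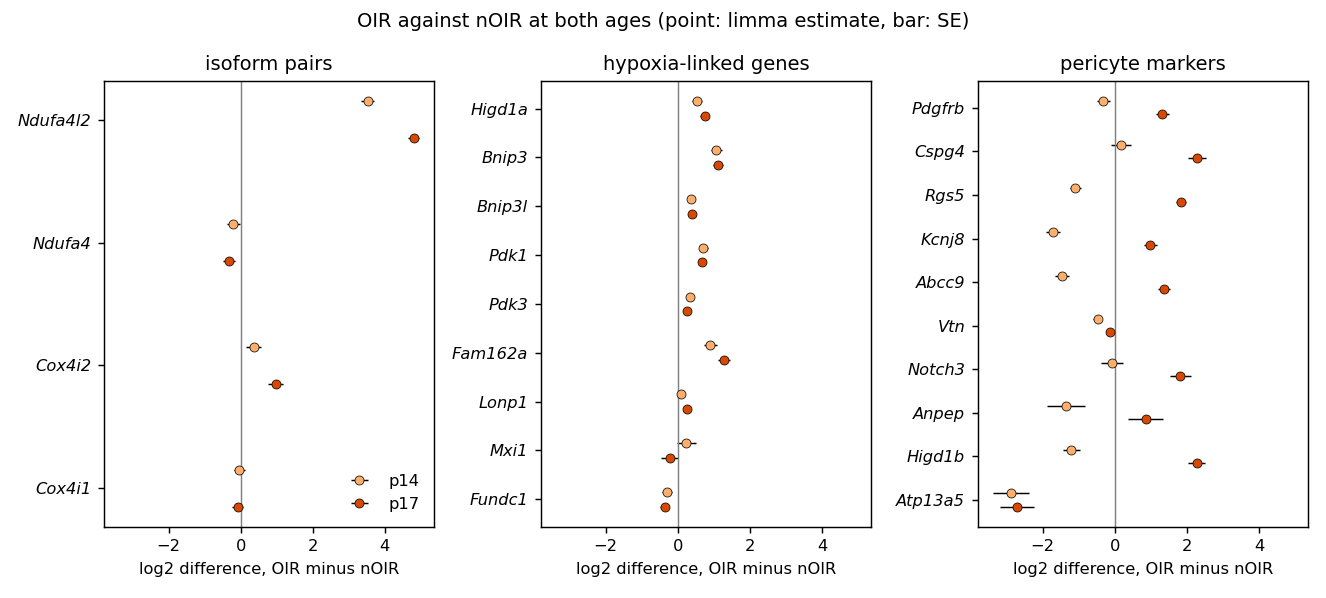
Log2 difference between OIR and nOIR mice at p14 (light) and p17 (dark) with its SE, for the 4 members, 9 hypoxia-linked genes and 10 pericyte markers. The horizontal axis is the same in each panel. Ndufa4l2 lies far to the right at both ages, and most pericyte markers lie left of 0 at p14 and right of 0 at p17.

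Other cell types also moved with the groups. Their counts stand beside 3.18% of all genes called higher and 2.91% lower at p14, and 7.39% and 5.12% at p17. Of 5 smooth muscle markers, 3 were called higher at p14 and 5 at p17, and of 9 endothelial markers 2 were higher and 1 lower at p14 and 7 higher at p17. Tagln was not called at p14 in 19 of 38 settings, with an adjusted p of up to 0.147, and Myh11 was not called at p17 in 4. The smooth muscle count was then 2 at p14, as without nOIR p14 mouse S1, S2, S5 or S6, OIR p14 mouse S1, S4 or S5, nOIR p17 mouse S2, S3, S4 or S6 or OIR p17 mouse S6 or S7, and 4 at p17, as without nOIR p17 mouse S2 or S3 or OIR p17 mouse S7. The endothelial count of higher genes at p14 was 1 without OIR p14 mouse S1, S4, S5 or S6 or nOIR p14 mouse S3, S5, S6 or S7, and that of lower genes was 2 without OIR p14 mouse S4 or S6. The added lower gene was Tie1, which was called at p14 in 7 of 38 settings. The other settings were S4 kept, log2 Cryaa as a covariate, a minimum mean of 10, quantile normalization and the replicate block. Of 5 Müller glia markers, 4 were lower at both ages, among them the glutamine synthetase gene Glul, which fell by 0.98 at p14 and by 0.47 at p17. The p17 call of Glul was lost under scaling to the same total, under quantile normalization and without nOIR p17 mouse S2, S3 or S5 or OIR p17 mouse S1, S2 or S5. Of 5 rod genes, 1 was lower at p14 and 2 at p17. The p14 count was 2 without OIR p14 mouse S1, and the p17 count was 0 without nOIR p17 mouse S2 and 1 without S4 or S6. Over the 38 settings, Gnat1 was not called at p14 in 1. At p17 Pde6b was not called in 5 and Sag in 2, with an adjusted p of up to 0.0826 and 0.768. Gnat1 was called lower at p17 with the replicate block (limma adjusted p = 0.0493). All 3 red cell genes were higher at p17, and 0 of the 7 lens genes tested were called at either age by limma, edgeR or DESeq2, or had an unadjusted p under 0.05. Lens reads were still not even between the groups. All 7 lens genes had a log2 difference above 0 at both ages, with a median of 1.47 at p14 and 1.66 at p17, within a wide spread between mice. Summed smooth muscle reads were 337.4 to 435.4 in nOIR and 736.1 to 1490 in OIR mice at p14, and 227.1 to 463.2 in nOIR and 1699 to 4077 in OIR mice at p17. Cnn1, a smooth muscle marker, was at 0 in 1 mouse, and Cryaa, Crygs and Mip of the lens list were at 0 in 1, 3 and 2 mice. The OIR effect was larger at p17 than at p14 in 7 of 10 pericyte, 2 of 5 smooth muscle, 6 of 9 endothelial and 2 of 3 red cell genes (limma). With single mice left out the red cell count ran from 0 to 3. The part of these cell types in the levels of the members was not tested.

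The genes with the most similar pattern were named by Pearson's r on the log2 scale over the 26 mice, among the 19003 genes whose mean was 10 normalized reads or more. For Ndufa4l2 they were Tagln2 (r 0.983), the class II antigen gene H2-Ab1 (0.982), Hsd17b2 (0.975), the vasoactive peptide gene Adm (0.974) and the intermediate filament gene Vim (0.972). Adm, for example, had means of 68.0 in nOIR and 574.5 normalized reads in OIR mice at p14, and of 29.2 and 1368 at p17. For Cox4i2 they were Pfn1 (0.923), Gng5 (0.916), Mif (0.916), Higd1a (0.915) and Tmsb4x (0.915). Cox4i2 ranked 788 in the list of Ndufa4l2 with r of 0.734, and Ndufa4l2 ranked 386 in that of Cox4i2. These values pool the mice of 4 groups whose means differ, and carry no p. After subtracting group means, r was 0.393 to 0.616 for the 5 genes named for Ndufa4l2, below the 0.709 of Cox4i2, and 0.833 to 0.942 for the 5 named for Cox4i2.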

How the data were processed

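The authors mapped the reads with STAR 2.7.8a, counted them on genes with featureCounts 2.0.1 and divided each mouse's counts by a size factor from DESeq2 1.34, and these normalized reads are the deposited signal. Deposited log2 fold changes and adjusted p-values of the authors' own comparisons, and the authors' group means, were in the same table and were not used. As in the study, mouse S4 of the nOIR p14 group was not used, so 26 of 27 mice remained. The annotation used for counting was newer than the Gencode M21 tables from which places, lengths and sequences of the members were taken here.

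The 27137 genes averaging 1 normalized read or more were fitted with limma 3.58.1 (lmFit, eBayes with a trend) in R 4.3.3 on log2(normalized reads + 1), all 4 groups in 1 fit, with Benjamini-Hochberg adjustment over all genes tested. Recovered whole reads (tolerance 0.01 read) served edgeR 4.0.16 and DESeq2 1.42.0 as alternatives. Further alternatives changed the pseudocount to 0.1, the minimum mean to above 0 or to 10, or the mice (S4 kept, only the compared groups, each mouse omitted singly). Others added mouse number as a block or log2 Cryaa to the model, or rescaled the values (same total per mouse, or quantile normalization). Limma was tested on simulated data. Ratios and correlations were tested by exact permutation with scipy 1.17.1 (Python 3.11.15), and tables were handled in pandas 2.3.3 and numpy 2.4.6. Chi-square per degree of freedom between reads of mice of the same group was at least 9.39, so that no library was a copy of another of its group. PCR copies were not removed.

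The members and the gene lists were chosen with earlier results of these data known. A further rod marker is not reported here and is in none of the rod values. All members were named. Of lists of up to 10 genes any tested gene could be named, and of longer lists the 3 with the smallest adjusted p in each direction. For complex IV the genes with an unadjusted p under 0.05 were also named, after their values were seen. Likeness named the 5 genes with the highest r.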

Additional observations from a re-analysis of the deposited data

Results flagged for a closer look

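In 24 groups of values looked at for a single distant mouse, 3 were found, while chance marks about 1 in 20 groups. All 3 are groups of the same ratio, and the 24 groups share mice and genes. In nOIR p14 mice the ratio of Ndufa4l2 to Ndufa4 was highest in mouse S1, with 1.88 reads per 100. The other mice used had at most 1.15, while mouse S4, which was not used, had 1.66. In nOIR p17 mice it was highest in mouse S1, with 1.30 reads per 100. Both S1 mice had the lowest Ndufa4 level among the mice used of their group, with 10378 and 10619 normalized reads. In OIR p17 mice the same ratio was lowest in mouse S4, with 20.8 reads per 100, and the other mice had at least 27.6.

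The OIR effect at p17 differed from that at p14 in 17 genes of the marker lists (limma, adjusted p under 0.05), and 1.43% of all genes were called higher and 0.147% lower. The values are on the log2 scale. Among the pericyte markers, the difference was 1.64 for Pdgfrb, 2.11 for Cspg4, 2.94 for Rgs5, 2.70 for Kcnj8, 2.83 for Abcc9, 1.89 for Notch3 and 3.48 for Higd1b. Among smooth muscle markers it was 1.68 for Acta2 and 2.39 for Des. Among endothelial markers it was 0.87 for Pecam1, 1.68 for Cdh5, 1.72 for Cldn5, 2.07 for Tie1, 2.06 for Emcn and 2.36 for Erg. Among red cell genes it was 3.34 for Hbb-bs and 1.85 for Alas2, which were not called in 22 and 14 of 38 settings. In Rgs5, Kcnj8, Abcc9, Higd1b and Cldn5 the OIR effect was called below 0 at p14 and above 0 at p17. In Pdgfrb, Notch3, Tie1, Cdh5, Emcn, Erg and Alas2 the sign also turned, without a call at p14. Tie1, however, was called lower at p14 in 7 of 38 settings.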

How the results depend on the processing

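The OIR minus nOIR differences of all 4 genes stayed within 1 SD of the mice under every alternative run. Leaving out 1 mouse cannot move a difference that far, and using the compared groups only leaves it unchanged, so these settings had to pass. With single mice left out, the difference of Ndufa4l2 ran from 3.43 to 3.60 at p14 and from 4.72 to 4.89 at p17. That of Cox4i1 ran from -0.11 to 0.021 and from -0.15 to 0.023, so its sign was not fixed. The change of Ndufa4l2 from OIR p14 to OIR p17 was no longer called with the compared groups only (0.60), with a replicate block (0.47) or with log2 Cryaa as a covariate (0.54), nor without OIR p14 mouse S4 or S6 or OIR p17 mouse S3 or S8, and ran from 0.52 to 0.69 with single mice left out. The change of Ndufa4l2 from nOIR p14 to nOIR p17 became called with the compared groups only (-0.68), with the same total per mouse (-0.72) and with DESeq2 (-0.67). With single mice left out, the difference of effects ran from -0.12 to 0.060 for Cox4i1, turning sign without nOIR p14 S1, OIR p14 S1 or OIR p17 S1, and from -0.21 to 0.016 for Ndufa4, turning sign without nOIR p14 S1. The fall of the Ndufa4l2 to Ndufa4 ratio in nOIR mice ran from -0.66 to -0.39.

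With single mice left out, r of Ndufa4l2 and Cox4i2 ran from 0.825 to 0.932 in OIR p14 and from -0.70 to 0.362 in nOIR p17, turning sign without mouse S1 or S2. For Ndufa4 and Cox4i1 it ran from 0.767 to 0.959 in nOIR p14, 0.755 to 0.927 in OIR p14 and 0.822 to 0.958 in nOIR p17, and each of these relations lost its call without at least 1 mouse. With 5 mice an exact test has few orders to draw on. At the same total per mouse, r was 0.876 for Ndufa4l2 and Cox4i2 in OIR p14, and 0.890 in nOIR p14 and 0.829 in OIR p14 for Ndufa4 and Cox4i1, none of them called after adjustment.

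Counts of genes called over the whole table depended more on the settings. In the difference of effects, 389 were higher and 40 lower, against 255 and 14 with the replicate block and 597 and 93 by DESeq2, and the lower count ran from 24 (without OIR p14 S6) to 57 with single mice left out. From nOIR p14 to p17, 43 were higher and 43 lower, against 114 and 90 with the compared groups only, 109 and 127 by DESeq2, 27 lower with the replicate block and 79 lower at the same total. With single mice left out these counts ran from 22 to 64 and from 12 to 67, both lowest without nOIR p14 S3. From OIR p14 to p17, 491 were lower, against 211 with the compared groups only and 298 with the block. Scaling to the same total moved the share of higher among called genes from 52.2% to 62.6% at p14, from 59.1% to 71.4% at p17 and from an even split to 33.1% from nOIR p14 to p17. With the compared groups only, that share from OIR p14 to p17 went from 69.4% to 79.4%.

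Mouse numbers did not pair the mice. Deviations of same-numbered mice correlated at -0.11 to 0.16 over 34 pairs, 4 of them above 0.1, and 5 of 26 mice correlated best with their own number. The replicate block changed no call of a member beside the one above. Of list genes it ended the calls of Pdk3 and Tagln at p14, of Bnip3l and Rbpj at p17, of Glul from OIR p14 to p17, and of Notch3 and Hbb-bs in the difference of effects. The block also added a lower call of Tie1 at p14 (-0.52, limma adjusted p = 0.0439). At p17 it added lower calls of Gnat1 (-0.33, adjusted p = 0.0493) and Fundc1 (-0.43, adjusted p = 0.0393). The causes of these shifts were not tested. Depth limits AA467197, which had at most 20 recovered reads in a mouse.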
